A study of Mus musculus with 20 samples.

Results

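Peritubular capillaries are the fine vessels that surround the tubules of the renal cortex. They were compared with whole kidney, in 4 libraries of each, which are 8 of the 20 libraries of the series. The 8 were chosen by the group named in the header of the deposited table: control kidneys, cut as peritubular capillaries in 1 group and not microdissected in the other. All came from healthy male wild-type C57BL6/OlaHsd mice, 8 to 12 weeks old, with no treatment in either group. Capillaries were cut by laser in the cortex of cryosections from snap-frozen kidneys, stained with the lectin isolectin B4, which binds endothelium, and whole sections of kidney served as the reference. Microdissected libraries were made with a low-input modification and more PCR cycles, so tissue and preparation cannot be told apart in this comparison. The purpose of the comparison here was to separate genes of the endothelium from genes of the cortical tubules that lie against it.

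A peritubular capillary is a thin fenestrated tube. Its endothelium carries PECAM1 and VE-cadherin at the junctions, PLVAP across the fenestrae and endomucin on the surface. It runs within micrometres of tubule epithelium, which makes up most of the cortex. The proximal tubule, the largest part of that epithelium, takes back phosphate, glucose, amino acids and protein from the filtrate. Its first segments (S1 and S2) lie in the cortex and its last (S3) reaches the outer medulla. The thick ascending limb, the distal convoluted tubule and the collecting duct follow. A cut along a capillary can therefore carry RNA of the epithelium beside it, and the lists below were ordered to show which epithelium that was.

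The data were 3′ mRNA read counts. Libraries are named by the number in the table (93, 96, 98 and 100), and values per library follow that order. Capillary libraries held 6864858 to 10585288 counts and whole kidney libraries 7654464 to 12283098. More than 10 counts were reached by 6349 to 9478 genes in capillary libraries, the fewest in library 100, and by 13020 to 14524 genes in whole kidney. The median gene had a standard deviation of log2 CPM (read counts scaled to a common library size by TMM, a trimmed mean of ratios between libraries) of 1.585 between capillary libraries and 0.2311 between whole kidney libraries. The mean Spearman correlation across genes was 0.653 within the capillary group, 0.970 within whole kidney and 0.766 between them. By this measure capillary libraries were on average closer to whole kidney than to one another. Scatter between capillary libraries lowers their correlation with one another more than with whole kidney, so similarity of profile cannot be read from it. The labels call the samples biological replicates without naming the mouse behind each.

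The markers of endothelium did not set the capillary libraries apart. Pecam1 stood at 64.7, 40.9, 40.0 and 95.4 CPM in the capillary libraries and at 65.8, 81.1, 63.3 and 56.9 CPM in whole kidney. The groups overlapped, with a log2 fold change of -0.15 ± 0.45 (SE; FDR 0.928 by edgeR's quasi-likelihood test with Benjamini-Hochberg adjustment, as for every FDR below). Cdh5, which encodes VE-cadherin, stood at 0.261, 7.64, 0.869 and 0.373 CPM against 15.8, 7.86, 11.2 and 12 CPM. All 4 capillary libraries were below all 4 of whole kidney, 3 of them under 1 CPM, yet the fit did not call the gene (log2 fold change -2.35 ± 1.34, FDR 0.395). Plvap, the protein of the fenestral diaphragm, stood at 100, 77.9, 12.6 and 73.2 CPM against 102, 89.8, 88.7 and 86.8 CPM (-0.48 ± 0.54, FDR 0.752). For these defining genes no excess of the libraries labelled peritubular capillaries over whole kidney was detectable. In bulk samples, fewer cells of a type and less RNA per cell cannot be told apart.

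Of the 28 genes on the pan-endothelial list, 26 were tested and none was called in either direction (2.85% of all 12705 tested genes were called higher and 8.44% lower). Their median log2 fold change was 0.60, against 0.19 over all tested genes and 0.39 over the 2669 tested genes of at least 50 CPM in whole kidney. With library totals it was 0.20, against -0.20 over all tested genes. By limma voom with a variance for each group it was -0.37, against -1.18 over all tested genes. By sign, 19 of the 26 lay above 0. Capillary libraries lay both above and below the whole range of whole kidney for 23 of the 26. Icam2, an adhesion molecule of endothelium, stood at 1.43, 110, 1.63 and 1.49 CPM against 12.4, 15.7, 12.1 and 12.3 CPM. Robo4, a guidance receptor of endothelium, stood at 103, 1.20, 39.3 and 0.745 CPM against 11.6 to 14.5 CPM. Adgrl4, an adhesion receptor, stood at 1.82, 8.84, 69.2 and 1.12 CPM against 26.5 to 42.5 CPM. Each of these was high in 1 or 2 capillary libraries and low in the others, and the libraries that were high differed from gene to gene.

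Such scatter was also seen in other genes of that level. Among the 7393 tested genes of 5 to 50 CPM in whole kidney, 72.1% had capillary libraries on both sides of whole kidney, and 66.1% had at least 1 capillary library under 1 CPM. For the 19 pan-endothelial genes in that range the counts were 17 and 7. The more abundant endothelial genes varied less. Kdr, the main VEGF receptor, stood at 201, 96.5, 150 and 407 CPM against 101, 174, 135 and 148.4 CPM (log2 fold change 0.62 ± 0.41, FDR 0.50). Flt1, the other VEGF receptor of endothelium, stood at 189, 149, 119 and 215 CPM against 74.2, 109, 92.9 and 116 CPM (0.78 ± 0.31, FDR 0.170). Flt1 was the only pan-endothelial gene with all 4 capillary libraries above all 4 of whole kidney.

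**Figure D1:**
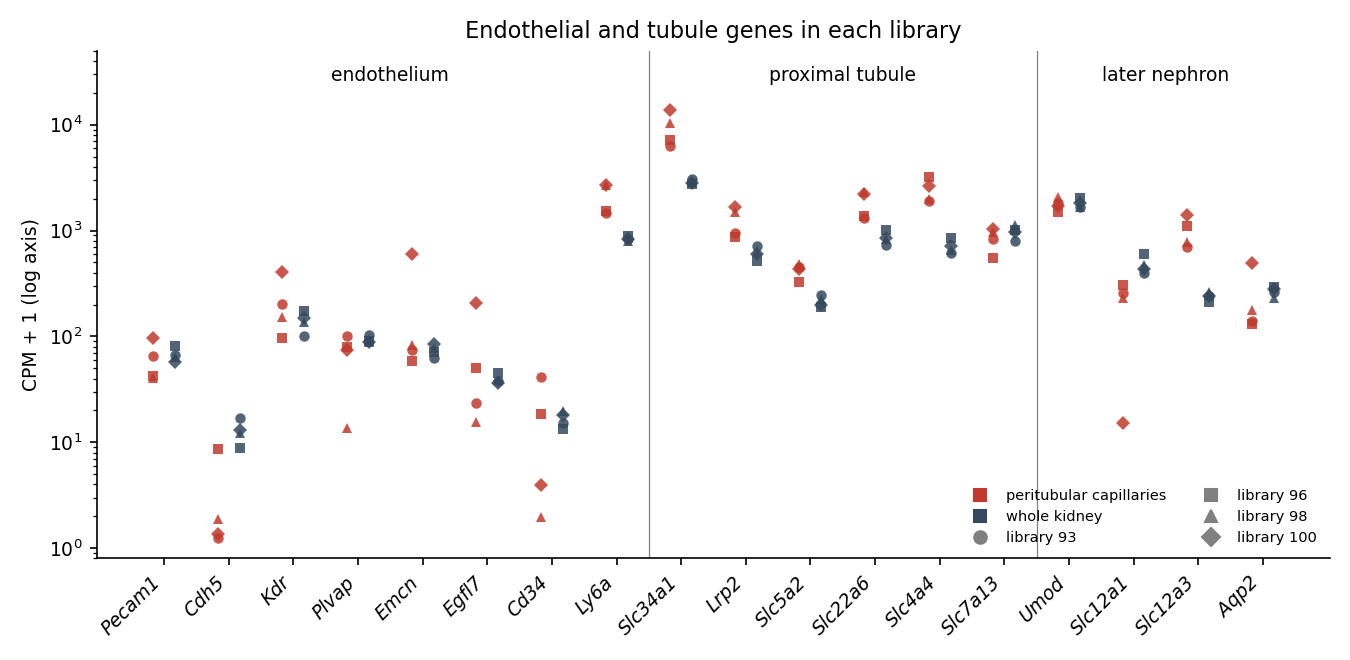
CPM + 1 on a log axis for 18 genes, with 1 point per library; red points are capillary libraries, dark points whole kidney, and the marker shape gives the library number. The endothelial genes other than Ly6a overlap or, for Cdh5, lie below whole kidney, while the red points of Slc34a1, Lrp2, Slc5a2, Slc22a6, Slc4a4 and Slc12a3 lie above every dark point.

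The capillary endothelial list gave 1 gene higher and 1 lower of 20 tested. Its median log2 fold change was 0.20 (-0.24 with library totals and -0.61 by limma voom). Over all tested genes these medians were 0.19, -0.20 and -1.18 in the same order. Ly6a, a surface protein of renal endothelium also known as Sca-1, stood at 1479, 1532, 2685 and 2701 CPM against 830, 883, 792 and 835 CPM. No capillary library overlapped whole kidney (log2 fold change 1.33 ± 0.23, FDR 0.00572), and the call held without any 1 library (FDR at most 0.0198), though not in a single fit of all 20 libraries. Ly6a took 43.1% of the list's counts in capillary libraries and 26.5% in whole kidney. Aplnr, the apelin receptor, was called lower on 6 counts over the 4 capillary libraries against 152 in whole kidney (FDR 0.0417). That call ended without capillary library 100 or any 1 whole kidney library. Aplnr averaged 3.42 CPM in whole kidney, and of all tested genes under 5 CPM there 28.6% were lower. Igfbp7, a secreted binding protein abundant in renal capillaries, stood at 1739, 1261, 1922 and 1492 CPM against 1186, 1054, 1229 and 1036 CPM. Its groups did not overlap, but it was not called (0.51 ± 0.18, FDR 0.115).

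Emcn, which encodes endomucin, stood at 72.8, 58.3, 81.3 and 597 CPM against 61.0, 70.2, 76.5 and 83.8 CPM. Only capillary library 100 was outside the range of whole kidney by more than a few CPM, and the fit did not call the gene (log2 fold change 1.47 ± 0.69, FDR 0.258). Egfl7, a protein that endothelium secretes, showed the same library highest, at 22.7, 49.0, 14.7 and 205 CPM against 37.2, 43.9, 38.2 and 35.1 CPM. Cd34, a sialomucin of capillaries, was highest in library 93, at 40.0, 17.5, 0.977 and 2.98 CPM against 14.3, 12.3, 19.0 and 17.1 CPM. Igfbp3 and Igfbp5, further secreted binding proteins of renal capillaries, had log2 fold changes of 0.26 ± 0.55 and -0.28 ± 0.30 (FDR 0.887 and 0.734).

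Markers of other vessels gave few calls. None of 12 tested arterial genes was called, and their share of counts was 0.0607% ± 0.0086 against 0.074% ± 0.00531, below whole kidney in 4 of 4 libraries (SD, n = 4; exact p 0.0286). Gene by gene, 6 of the 12 lay above 0. Their median log2 fold change was 0.09, or -0.32 with library totals, against 0.19 and -0.20 over all tested genes. Gas6, a ligand of receptor tyrosine kinases, was the 1 venous gene higher, at 413, 299, 317 and 375 CPM against 229, 151, 183 and 166 CPM (log2 fold change 0.94 ± 0.24, FDR 0.0232). That call ended without whole kidney library 96, 98 or 100, and with library totals as the only scaling. Smad6, an inhibitor of BMP signalling on the glomerular endothelial list, was lower on 7 counts against 175 (FDR 0.0120). It averaged 4.04 CPM in whole kidney, and 28.6% of all tested genes under 5 CPM there were lower. Ehd3, a marker of glomerular endothelium, stood at 69.6, 106, 60.8 and 197 CPM against 57.0, 63.8, 44.0 and 55.7 CPM and was not called (0.97 ± 0.45, FDR 0.249). Glomerular endothelial genes took 0.0109% ± 0.00359 of counts against 0.0118% ± 0.00189 and venous genes 0.0457% ± 0.0176 against 0.0425% ± 0.00192 (exact p 0.657 and 0.8).

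Many genes of the proximal tubule were higher in the capillary libraries. All 26 genes common to its segments were tested, 13 were higher and none was lower, with a median log2 fold change of 0.87, or 0.43 and 6 higher with library totals. By limma voom 6 were higher, and in the single fit of all 20 libraries 3 (0.0869% of all genes tested there). The 13 are 50% of the list, against 10.9% called higher among genes of at least 50 CPM in whole kidney. Among genes of 300 CPM or more it was 23.9%, and the median gene of the list stood at 550 CPM. Slc34a1, the apical phosphate transporter, stood at 6271, 7213, 10450 and 13869 CPM against 3039, 2750, 2886 and 2826 CPM. No library overlapped (log2 fold change 1.72 ± 0.24, FDR 0.00493). Kap, an androgen-regulated protein of the proximal tubule, was the most abundant gene of the list, at 54354, 58573, 76776 and 89329 CPM against 28258, 30103, 29941 and 29511 CPM (1.24 ± 0.17, FDR 0.00493). It supplied 51.2% of the list's counts in capillary libraries and 48.2% in whole kidney. Gpx3, the glutathione peroxidase that the kidney secretes into plasma, followed at 20107, 20766, 26775 and 43179 CPM against 11329, 13003, 9753 and 9081 CPM (1.36 ± 0.25, FDR 0.00584).

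The other genes called higher on that list cover uptake and metabolism. Slc13a3, a dicarboxylate transporter, stood at 1179, 1364, 1186 and 1872 CPM against 331, 584, 377 and 352 CPM (1.77 ± 0.25, FDR 0.00493). Ggt1, a brush border peptidase of glutathione, stood at 1549, 1986, 2463 and 2743 CPM against 766, 1026, 809 and 808 CPM (1.36 ± 0.21, FDR 0.00493). Lrp2, the endocytic receptor megalin, stood at 950, 868, 1496 and 1680 CPM against 721, 521, 637 and 595 CPM (1.01 ± 0.24, FDR 0.0185), and its call ended without whole kidney library 96, 98 or 100 and with library totals. Khk, which starts fructose metabolism, had a log2 fold change of 1.28 ± 0.26 (FDR 0.00944). The others called were Acsm2, Miox, Slc27a2, Pdzk1, Fut9 and Cltrn. Not every proximal gene was called: Pck1, Keg1 and Hnf4a, which serve gluconeogenesis, conjugation and transcription, had log2 fold changes of -0.06, 0.06 and 0.24.

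Of the 13 genes of S1 and S2, 8 were higher (61.5%) and none lower, with a median log2 fold change of 1.08 and all 13 above 0 (0.64, with 5 higher, under library totals). By limma voom 3 of the 13 were higher, and in the 20-library fit none. Slc4a4, the basolateral sodium bicarbonate cotransporter, stood at 1891, 3177, 2002 and 2612 CPM against 615, 847, 660 and 722 CPM (log2 fold change 1.77 ± 0.21, FDR 0.00493). Slc22a6 and Slc22a8, the organic anion transporters OAT1 and OAT3, had log2 fold changes of 1.08 ± 0.23 and 1.79 ± 0.37 (FDR 0.0109 and 0.00985). For Slc22a8 the capillary values were 492, 731, 1209 and 1946 CPM, which spread over a wider range than those of Slc22a6 at 1303, 1384, 2336 and 2237 CPM. Slc22a12, the urate transporter, stood at 2678, 2110, 2429 and 2642 CPM against 1380, 1160, 1089 and 1221 CPM (1.02 ± 0.17, FDR 0.00512). Slc5a2, the glucose transporter SGLT2 of the first segments, stood at 450, 327, 487 and 428 CPM against 244, 190, 225 and 196 CPM (0.98 ± 0.22, FDR 0.0137), a call lost without whole kidney library 96, 98 or 100 and with library totals. Slc22a2, the organic cation transporter OCT2, had a log2 fold change of 1.11 ± 0.22 (FDR 0.00770).

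S3 genes gave few calls. Of 10 tested, 2 were higher and none lower, with a median log2 fold change of 0.12 that became -0.28 with library totals. Slc7a13, an aspartate and glutamate transporter that marks S3, stood at 825, 553, 975 and 1030 CPM against 793, 1018, 1139 and 969 CPM (-0.21 ± 0.22, FDR 0.731). Cyp7b1, a sterol hydroxylase of S3, stood at 13.3, 46.4, 97.7 and 1.30 CPM against 202, 184, 168 and 169 CPM, with no overlap, and was not called (-2.19 ± 0.86, FDR 0.156). The 2 called were Atp11a, a phospholipid flippase (1.36 ± 0.25, FDR 0.00595), and Slc1a1, a glutamate transporter (1.25 ± 0.30, FDR 0.0191). The call of Slc1a1 ended without whole kidney library 96, 98 or 100.

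Sequence around the start sites is shown for 3 of the called transporters, picked because their windows hold a motif that most of the called genes of these lists lack. HNF1 factors, which drive proximal tubule genes, bind sites that contain the half-site GTTAAT. The windows below, from RefSeq on GRCm38.p6, run from 250 bases before to 50 after an annotated start, 5′ to 3′ on the strand of the gene (the plus strand for all 3), with each half-site in capitals on either strand.
Slc34a1 chr13:55399398-55399697: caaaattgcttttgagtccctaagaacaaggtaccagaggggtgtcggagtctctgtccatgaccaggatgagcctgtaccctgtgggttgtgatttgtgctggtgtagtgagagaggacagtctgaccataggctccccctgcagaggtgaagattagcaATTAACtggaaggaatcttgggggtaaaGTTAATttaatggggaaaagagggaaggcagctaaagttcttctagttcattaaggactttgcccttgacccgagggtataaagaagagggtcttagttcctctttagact
Slc22a6 chr19:8617746-8618045: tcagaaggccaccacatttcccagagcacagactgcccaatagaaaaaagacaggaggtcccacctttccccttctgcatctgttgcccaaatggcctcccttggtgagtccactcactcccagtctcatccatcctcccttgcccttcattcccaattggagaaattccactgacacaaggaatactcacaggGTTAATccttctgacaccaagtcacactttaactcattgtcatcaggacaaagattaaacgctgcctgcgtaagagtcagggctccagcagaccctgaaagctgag
Slc22a8 chr19:8592932-8593231: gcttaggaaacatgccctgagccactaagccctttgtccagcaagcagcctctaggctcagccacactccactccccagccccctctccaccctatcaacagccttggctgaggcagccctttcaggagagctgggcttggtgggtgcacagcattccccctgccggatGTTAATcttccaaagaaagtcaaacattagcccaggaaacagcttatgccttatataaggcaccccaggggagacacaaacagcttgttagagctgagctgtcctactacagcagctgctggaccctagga
Slc34a1 holds the half-site in both orientations, and Slc22a6 and Slc22a8 hold 1 copy each. RefSeq windows were matched for 34 of the 39 genes on the common and the S1 and S2 lists, with 48 windows in all. The half-site was in 12 of the 48 (25.0%), against 7.10% of all 32851 windows. By gene, 8 of the 18 matched genes called higher held it, and 4 of the 16 not called higher. A match of letters describes the window and does not show binding.

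Within a library, the ratio between lists does not depend on how libraries are scaled. For each count on a pan-endothelial gene, capillary libraries held 84.8, 125, 167 and 130 counts on proximal tubule common genes, and whole kidney libraries 94.1, 80.3, 87.0 and 80.5. Capillary library 93 lay within whole kidney and the other 3 above it. On the log2 scale the ratio of endothelial to proximal counts was -6.95 ± 0.405 in capillary libraries and -6.41 ± 0.109 in whole kidney (SD, n = 4; exact two-sided permutation p 0.0857). With the capillary endothelial list, the ratio was -4.80 ± 0.152 against -4.31 ± 0.126, lower in 4 of 4 libraries (exact p 0.0286, the smallest that 4 against 4 can give; Benjamini-Hochberg value over the 4 ratios 0.0381). By that list the endothelial counts per proximal count were lower than in whole kidney by a factor of 1.40, a difference of -0.49 on the log2 scale. Whole sections were the reference, while the capillaries were cut in the cortex. The ratio therefore does not compare capillaries with the cortex around them. The size depended on the members: the difference was -0.74 without the most abundant gene of each list and -1.13 without Igfbp7 and Ly6a. With the same members it was -1.07 as a mean of log2(CPM + 1) over members (exact p 0.0286 each). Such a mean gives every gene the same weight, genes of low level included. Of the capillary endothelial genes 7 had a capillary library under 1 CPM, and of the proximal tubule common genes 0. The ratio of S1 and S2 to S3 counts was 1.85 ± 0.260 against 0.997 ± 0.124, and that of proximal to later nephron counts 3.52 ± 0.441 against 2.88 ± 0.0654. Both were higher in 4 of 4 capillary libraries (exact p 0.0286 and Benjamini-Hochberg value 0.0381 each). The proximal to later nephron ratio no longer reached that p without any 1 whole kidney library (0.0857 each). As means of log2(CPM + 1) over members, the differences between groups in these ratios were 1.51 in place of 0.86 and 1.33 in place of 0.64. Without capillary library 93, the pan-endothelial ratio differed by -0.71 (exact p 0.0286).

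**Figure D2:**
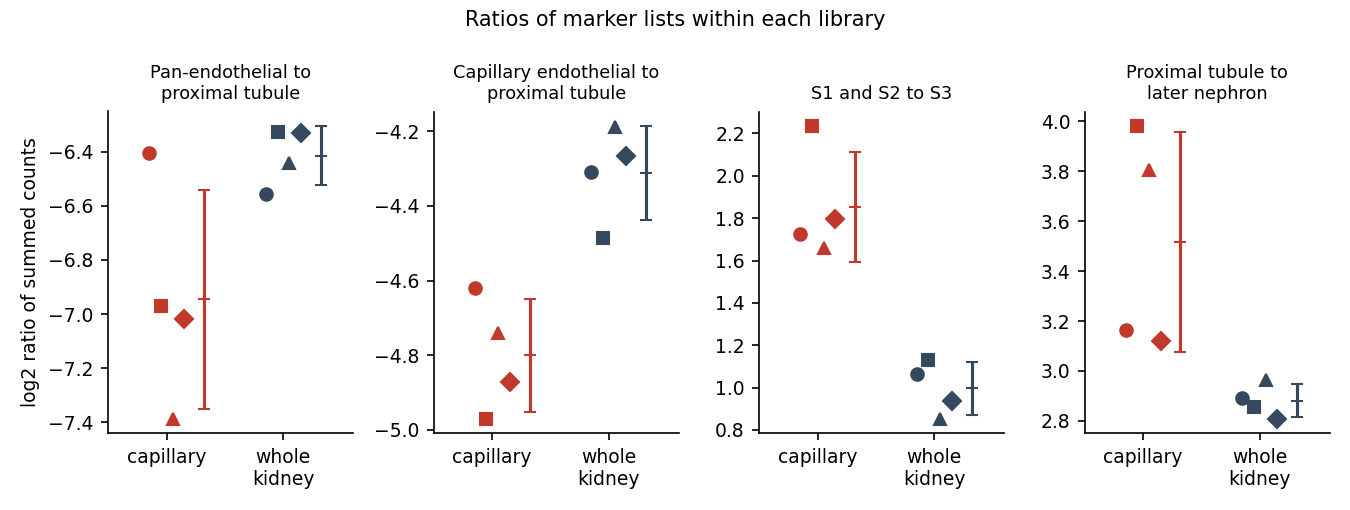
Log2 ratio of summed raw counts between marker lists within each library, with 1 point per library and the mean ± SD of each group beside the points (n = 4; each panel has its own vertical range, which does not start at 0). The groups do not overlap in the 3 right panels, and in the left panel capillary library 93, at -6.41, lies within the whole kidney range.

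As shares of all counts, 26 fixed lists were compared, and 12 reached the smallest exact p of 0.0286, 5 with all capillary libraries above whole kidney and 7 below. No list passed after adjustment over the 26 (Benjamini-Hochberg value 0.0619), so the shares are given as levels. Pan-endothelial genes took 0.119%, 0.0886%, 0.0752% and 0.0958% of capillary counts against 0.0773%, 0.0874%, 0.0821% and 0.0857% (exact p 0.286), and capillary endothelial genes 0.415% ± 0.0478 against 0.357% ± 0.0328 (SD, n = 4; exact p 0.114). Proximal tubule common genes took 10.1%, 11.1%, 12.6% and 12.4% against 7.28%, 7.02%, 7.14% and 6.90%. S1 and S2 genes took 0.910% ± 0.0539 against 0.518% ± 0.00810, which is 1.76 times whole kidney, and S3 genes 0.253% ± 0.0319 against 0.260% ± 0.0202 (exact p 0.743). The lists above whole kidney were thus those of all segments and of the cortical ones, while S3 overlapped it.

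Shares differed along the nephron beyond the proximal tubule. Thick ascending limb genes took 0.278% ± 0.0520 against 0.364% ± 0.00962, below whole kidney in 4 of 4 libraries. Their median log2 fold change was -0.11, or -0.50 with library totals, and of 9 tested 1 was called higher and none lower. Genes of the inner medulla and of osmolyte handling took 0.0161% ± 0.00895 against 0.0521% ± 0.00523, also below in 4 of 4 and 0.310 times whole kidney. Collecting duct principal cell genes took 0.0361% ± 0.0174 against 0.0566% ± 0.00481 (exact p 0.114). Distal and connecting tubule genes took 0.736%, 0.384%, 0.550% and 1.13% against 0.518%, 0.503%, 0.473% and 0.530%. These capillary libraries lay on both sides of whole kidney, and the highest was library 100 (exact p 0.314). Gene by gene, 10 of the 11 lay above 0 and 2 were called higher. The median log2 fold change was 1.29, or 0.74 with library totals and -0.04 by limma voom. All tested genes had medians of 0.19, -0.20 and -1.18 in the same order.

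Single genes of the later nephron differed within these lists. Slc12a3, the sodium chloride cotransporter of the distal convoluted tubule, stood at 704, 1099, 776 and 1407 CPM against 239, 211, 264 and 242 CPM. No library overlapped, and its log2 fold change of 2.06 ± 0.25 (FDR 0.00493) exceeded that of every called gene on the proximal lists. Klhl3, the ubiquitin ligase adaptor that controls this transporter through WNK kinases, was also called (1.68 ± 0.47, FDR 0.0376), but not without any 1 whole kidney library. Klk1, the kallikrein of the connecting tubule, stood at 4367, 1559, 3325 and 9981 CPM against 1645, 2242, 1811 and 2006 CPM and was not called (FDR 0.0788). Umod, uromodulin of the thick ascending limb, stood at 1839, 1504, 2082 and 1723 CPM against 1676, 2040, 1666 and 1827 CPM (-0.01 ± 0.17, FDR 0.984). Slc12a1, the cotransporter NKCC2 of the same limb, stood at 257, 304, 232 and 14.3 CPM against 400, 604, 475 and 438 CPM, below whole kidney in every capillary library and lowest in library 100, and was not called (-1.25 ± 0.62, FDR 0.303). Egf, made in the distal convoluted tubule and thick limb, was higher (0.78 ± 0.20, FDR 0.0264), a call lost without any 1 whole kidney library. Aqp2, the water channel of principal cells, had a log2 fold change of -0.17 ± 0.41 (FDR 0.904), while Aqp4, its basolateral partner, was called lower on 8 counts against 479 (FDR 0.0277), a call lost without any 1 whole kidney library.

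**Figure D3:**
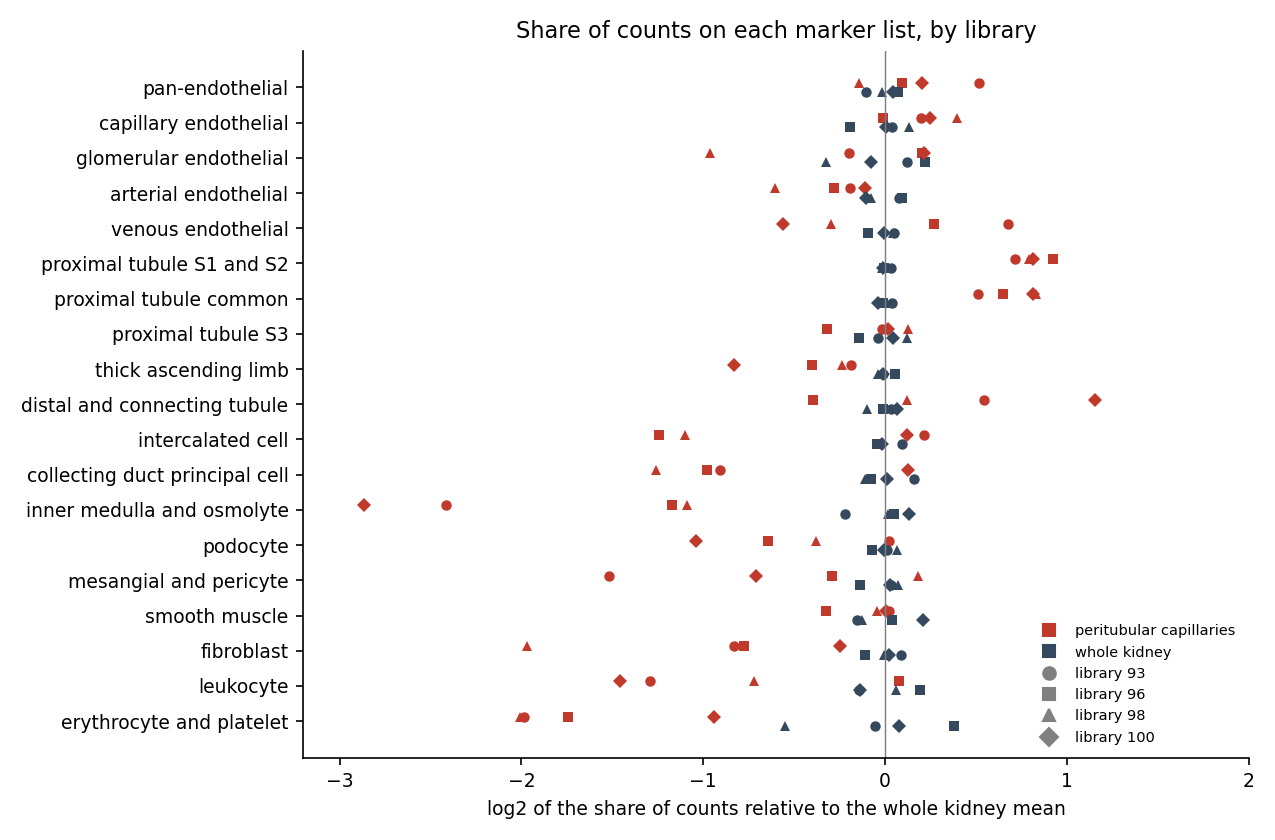
Log2 of the share of raw counts on each of 19 marker lists, relative to the mean share in whole kidney, with 1 point per library (red, capillary; dark, whole kidney). The proximal tubule common and the S1 and S2 lists lie to the right of whole kidney in all 4 capillary libraries, pan-endothelial genes straddle it, and the inner medulla and erythrocyte lists lie to the left.

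Among the lists of functions, the transport lists had the most calls, and they share genes with the segment lists. Of 17 genes of apical transport and endocytosis, 8 were higher and none lower (median log2 fold change 1.02). Slc13a1, the sulfate transporter, was among them (1.13 ± 0.22, FDR 0.00770). Of 13 basolateral transport genes, 7 were higher. Kcnj15, a potassium channel subunit, stood at 1339, 2665, 3020 and 2946 CPM against 610, 747, 841 and 846 CPM (1.71 ± 0.26, FDR 0.00493). Slco4c1, an organic anion transporter, was the 1 lower, with 1 count over the 4 capillary libraries against 336 (FDR 0.00814). It averaged 7.79 CPM in whole kidney, and 11.1% of all tested genes of 5 to 10 CPM there were lower. Metabolic lists gave fewer calls. In fatty acid oxidation 2 of 20 (10%) were higher, close to the 10.9% of all genes of at least 50 CPM, and none remained with library totals, where the median log2 fold change of the list was -0.31 in place of 0.19. Acaa1b, a peroxisomal thiolase, was among them (0.95 ± 0.27, FDR 0.0437), a call lost without capillary library 96 or whole kidney library 93, 98 or 100. In gluconeogenesis and fructose metabolism 2 of 8 were higher (25%), Khk and Pcx, pyruvate carboxylase (1.23 ± 0.22, FDR 0.00584). The median gene of that list stood at 311 CPM in whole kidney, and 23.9% of tested genes of 300 CPM or more were higher.

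Erythrocyte and platelet genes took 0.118% ± 0.0460 of counts against 0.357% ± 0.0909, lower in 4 of 4 libraries. Hbb-bt, a beta globin, stood at 53.5, 44.5, 44.9 and 135 CPM against 245, 345, 177 and 304 CPM (log2 fold change -1.95 ± 0.42, FDR 0.0112). That call ended with size factors of the DESeq2 kind, by DESeq2, by limma voom and in the 20-library fit. Pf4 and Ppbp, chemokines of platelets, were lower on 3 counts each against 201 and 76 (FDR 0.0103 and 0.00747). Fibroblast genes took 0.0241% ± 0.0103 against 0.0430% ± 0.00244, below whole kidney in 4 of 4 libraries. Of 11 tested, 3 were lower: Dpt, Mfap5 and Lum, matrix proteins of connective tissue, on 8, 9 and 6 counts against 123, 95 and 118. These 3, Pf4 and Ppbp above, and Cd68 and Akr1b7 below lie under 5 CPM in whole kidney, where 28.6% of all tested genes were lower. Nt5e, an ecto-nucleotidase on the list named after its values were seen, stood at 57.2, 20.4, 17.5 and 277 CPM against 47.9, 42.8, 40.9 and 57 CPM and was not called (FDR 0.60). The call of Lum ended without any 1 whole kidney library, and that of Mfap5 without whole kidney library 96, 98 or 100. Of 11 smooth muscle genes 1 was lower, against a list median of 0.08 with 6 above 0 (-0.35 with library totals). It was Acta2, smooth muscle actin, which stood at 51.6, 74.2, 30.7 and 38.8 CPM against 130, 125, 108 and 135 CPM (-1.35 ± 0.39, FDR 0.0437), a call lost without any 1 whole kidney library. Of 14 leukocyte genes 1 was lower, Cd68, a protein of macrophages, with 1 count against 189 (FDR 0.00622), and 5 lay above 0. Lyz2, a lysozyme of macrophages also named after its values were seen, stood at 61.1, 62.5, 37.5 and 171 CPM against 34.5, 45.9, 37.4 and 40.5 CPM and was not called (1.07 ± 0.54, FDR 0.306). Of 14 podocyte genes, only Ptpro was called, lower on 19 counts against 243 (FDR 0.0456), a call lost without any 1 whole kidney library. Ptpro averaged 5.69 CPM in whole kidney, and 11.1% of all tested genes of 5 to 10 CPM there were lower. Akr1b7, a reductase of renin cells, was lower on 1 count against 62 (FDR 0.00702). Podocyte genes took 0.0334% of counts against 0.0459%, mesangial and pericyte genes 0.0162% against 0.0223%, smooth muscle genes 0.0665% against 0.0703%, leukocyte genes 0.0259% against 0.0426% and intercalated cell genes 0.0277% against 0.0354% (exact p 0.114 to 0.514). Immediate early and heat shock genes, which respond to handling and stress, took 0.0187% ± 0.00536 against 0.0334% ± 0.00679, below whole kidney in 4 of 4 libraries, and none of their 12 tested genes was called.

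As summed shares of counts, mitochondrially encoded RNA stood on opposite sides of whole kidney by kind, but not every gene followed its kind. Its ribosomal RNA, mt-Rnr1 and mt-Rnr2, took 4.48% ± 0.517 of counts against 1.99% ± 0.0505, and its protein-coding RNA 5.44% ± 1.03 against 11.6% ± 0.460, without overlap in either case. mt-Rnr2 stood at 45588, 44700, 41508 and 61038 CPM against 13570, 15644, 14019 and 14935 CPM (log2 fold change 1.73 ± 0.16, FDR 0.00273). It supplied 91.9% of the ribosomal RNA counts in capillary libraries and 84.1% in whole kidney. mt-Rnr1 was not called, and its capillary libraries lay both above and below whole kidney. Of 8 protein-coding genes tested, 4 were lower, among them mt-Nd4, mt-Cytb and mt-Nd1, subunits of the respiratory chain (-0.84, -0.79 and -0.65). These 3 calls ended with size factors of the DESeq2 kind and by limma voom. mt-Co1 and mt-Nd5 were not called (0.20 and 0.27). Cytoplasmic ribosomal protein genes, 85 genes named Rpl or Rps and listed after the data were seen, took 1.76% ± 0.135 of counts against 2.48% ± 0.0958 (exact p 0.0286). Whether preparation or RNA quality has a part in these shifts was not tested.

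Over all genes, 362 were higher and 1072 lower of 12705 tested, with 2581 at an unadjusted p under 0.05. Without any 1 capillary library 637 to 802 were higher and 1697 to 2277 lower, and without any 1 whole kidney library 143 to 174 were higher and 805 to 947 lower. With library totals as the only scaling the split was 137 higher and 1146 lower. In a single fit of all 20 libraries, 12 were higher and 2 lower of 13813 tested (0.0869% and 0.0145%), and all 12 were also among the 362. Of the 362, 37 are on the lists and 325 on none, and 15 are predicted genes or pseudogenes. All 4 capillary libraries exceeded all 4 of whole kidney for 344 of the 362. Scaling shifted the median log2 fold change of all tested genes from 0.19 to 0.37 with DESeq2-type size factors and to -0.20 with library totals. Changes near that size therefore have no fixed direction. By limma voom with a variance for each group the median was -1.18.

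The 12 largest increases of named genes at 10 CPM or more were Snx29, Cdk7, Rasa4, Aspscr1, Ttr, Glt1d1, Rnpc3, Rusf1, Prodh2, Abcd4, Brip1os and C1rl, with log2 fold changes of 2.89 down to 2.57. Ttr, the thyroxine and retinol carrier transthyretin, stood at 442, 1564, 1202 and 1987 CPM against 166, 230, 218 and 161 CPM (2.74 ± 0.39, FDR 0.00493). Prodh2, which degrades hydroxyproline, stood at 73.3, 161, 187 and 693 CPM against 51.8, 54.4, 44.7 and 31.7 CPM (2.61 ± 0.60, FDR 0.0152). Snx29, a sorting nexin, stood at 144, 136, 68.8 and 337 CPM against 19.3, 20.7, 25.4 and 26.9 CPM (2.89 ± 0.50, FDR 0.00560). Cdk7, the kinase of the CDK-activating complex, stood at 39.2, 16.8, 63.9 and 171 CPM against 10.2, 6.89, 13.7 and 10.4 CPM (2.82 ± 0.77, FDR 0.0356). For 7 of the 12, capillary library 100 was the highest by more than 1.5 times. The calls of Cdk7, Rasa4, Aspscr1, Glt1d1, Rusf1 and Brip1os ended without any 1 whole kidney library, those of Cdk7, Rusf1 and Brip1os also without capillary library 100, and that of Aspscr1 also without capillary library 98. Prodh2 was lost without whole kidney library 100.

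Some abundant genes were higher with little scatter, and they are named after their values were seen. Timp3, an inhibitor of metalloproteinases bound to matrix, stood at 3507, 3740, 4841 and 5330 CPM against 1474, 1254, 1354 and 1396 CPM (log2 fold change 1.67 ± 0.18, FDR 0.00493). Spink1, a trypsin inhibitor, stood at 4153, 4787, 5965 and 6680 CPM against 1432, 1878, 1656 and 1563 CPM (1.72 ± 0.19, FDR 0.00493). Neat1, the nuclear long noncoding RNA of paraspeckles, stood at 1981, 1824, 1373 and 2761 CPM against 513, 717, 637 and 760 CPM (1.6 ± 0.24, FDR 0.00493). Srrm2, a nuclear splicing protein, and Zbtb20, a transcription repressor, had log2 fold changes of 1.63 ± 0.27 and 1.32 ± 0.22 (FDR 0.00542 and 0.00512). These 5 with Ttr, Slc34a1, Kap, Gpx3, Kcnj15, mt-Rnr2 and the predicted gene Gm22748 are the 12 called higher in the 20-library fit.

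Those genes were not alike across the vessels of the series, whose comparisons share the same whole kidney libraries. Scaled together over 20 libraries, Timp3 averaged 3314 CPM in arterioles, 2151 in glomeruli and 2611 in venules. Srrm2 averaged 1104, 870 and 809 CPM and Neat1 682, 2025 and 832 CPM. Slc34a1 averaged 1364, 1238 and 4730 CPM and Ttr 115, 96 and 1360 CPM, with venules the highest of these vessels for both genes. Capillary and whole kidney values in this report are scaled over 8 libraries, so they are not on the same scale as these means. Slc5a10, a sodium-coupled sugar transporter, averaged 11.1, 6.21 and 22.2 CPM there. In the capillary libraries it stood at 234, 330, 235 and 472 CPM against 139, 135, 120 and 132 CPM in whole kidney (log2 fold change 1.27 ± 0.28, FDR 0.0124), a call lost without whole kidney library 98 and with library totals. The difference between capillaries and the other vessels was not tested.

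A list of genes also assayed by quantitative RT-PCR holds markers that the study picked from its sequencing, which are no independent evidence. It also holds Pecam1, Plvap, Emcn and Ehd3, which the study chose from known expression patterns and assayed before sequencing. Of its 13 genes, 3 were higher and 1 lower, against 2.85% and 8.44% of all tested genes. The 3 were Slc5a10, Slc22a2 and Cd36, a fatty acid transporter found in endothelium and tubule, and mt-Nd1 was the 1 lower. Cd36 stood at 262, 272, 293 and 367 CPM against 187, 132, 161 and 186 CPM (0.84 ± 0.24, FDR 0.0426), a call lost without any 1 whole kidney library. Pzp, a protease inhibitor, had a log2 fold change of 0.95 ± 0.42 (FDR 0.232), and Igf1, a growth factor, -1.58 ± 1.18 (FDR 0.561), with capillary values of 3.00, 25.2, 8.14 and 0.186 CPM.

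The 1072 lower genes were of another kind. Their median level in whole kidney was 3.42 CPM, against 115 CPM for the genes called higher, and 1034 of them stood under 1 CPM in every capillary library. Below 20 CPM in whole kidney lay 1046 of the 1072, and 16 reached 50 CPM. Among tested genes of under 5 CPM in whole kidney, 28.6% were lower and 0.227% higher, and among genes of 300 CPM or more 2.69% were lower and 23.9% higher. The largest decreases among named genes were of Cck, Fam174b, Elac2, Flad1, Dda1, Nubpl, Irx1, Trim37, Stxbp6, Lsm10, Dvl3 and Eftud2, all called on 25 or fewer counts over the 4 capillary libraries. The calls of Flad1, Dda1, Trim37 and Stxbp6 ended without any 1 whole kidney library, that of Elac2 without library 96, 98 or 100, that of Lsm10 without 98 or 100 and that of Eftud2 without 98. Irx1, a homeobox gene of the nephron, had 25 counts against 2115 (FDR 0.00560), and Cck, the peptide cholecystokinin, 4 against 1468 (FDR 0.00572). Among genes with more counts, Txnip, an inhibitor of thioredoxin, stood at 28.7, 59.3, 97.2 and 32.8 CPM against 289, 165, 212 and 195 CPM (log2 fold change -1.98 ± 0.43, FDR 0.0112).

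**Figure D4:**
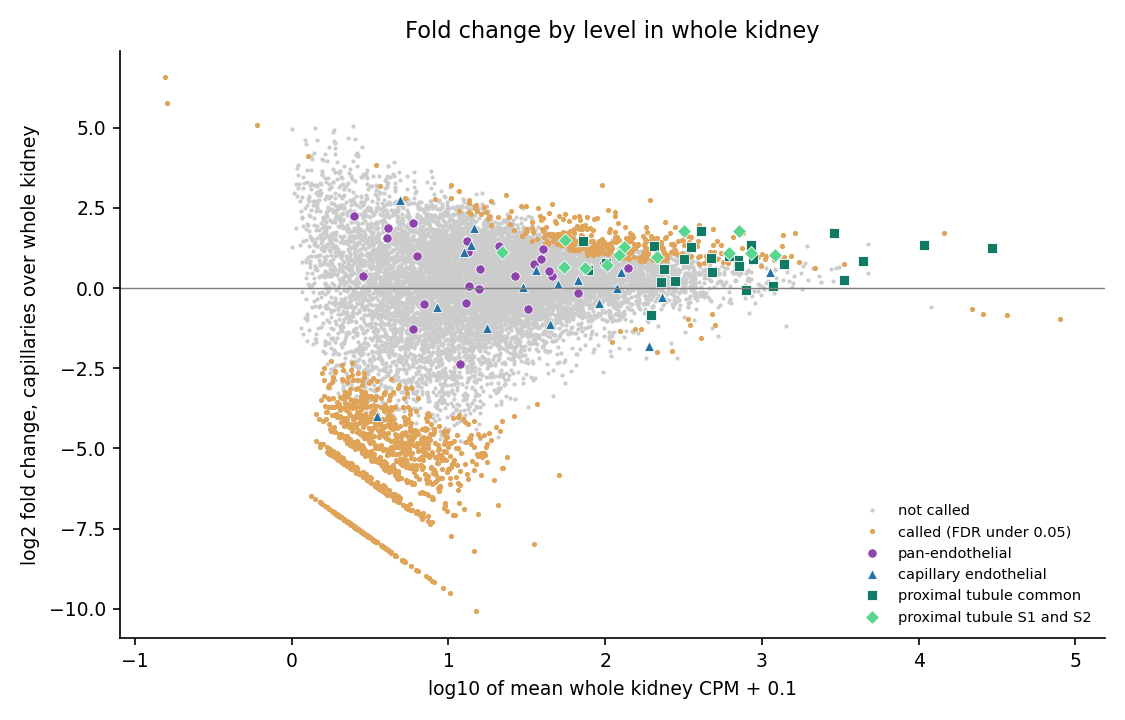
Log2 fold change of capillary over whole kidney libraries against log10 of mean whole kidney CPM + 0.1, with 1 point per tested gene; orange points were called at an FDR under 0.05. Decreases sit at the left among genes of low level, increases at the right, most genes of the proximal tubule lists lie above 0 at high level, and the pan-endothelial genes spread on both sides of 0.

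Detection changed over the same range. In capillary libraries 93, 96 and 98, between 20.8% and 30.1% of genes of 10 to 20 CPM in whole kidney were under 1 CPM, and in library 100 it was 55.0%. In whole kidney libraries at most 0.0399% of them were. At 50 to 100 CPM the shares in capillary libraries were 0.146% to 4.31%. The median pan-endothelial gene stood at 14.5 CPM in whole kidney and the median proximal tubule common gene at 550 CPM, so the lists were measured in different parts of this range. The median standard error of the log2 fold change was 1.12 for pan-endothelial genes and 0.23 for proximal tubule common genes. A change of the size called in the latter was therefore not detectable for most of the former. For pan-endothelial genes the median SD of log2 CPM was 1.90 between capillary libraries and 0.24 between whole kidney libraries, at similar total counts.

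**Figure D5:**
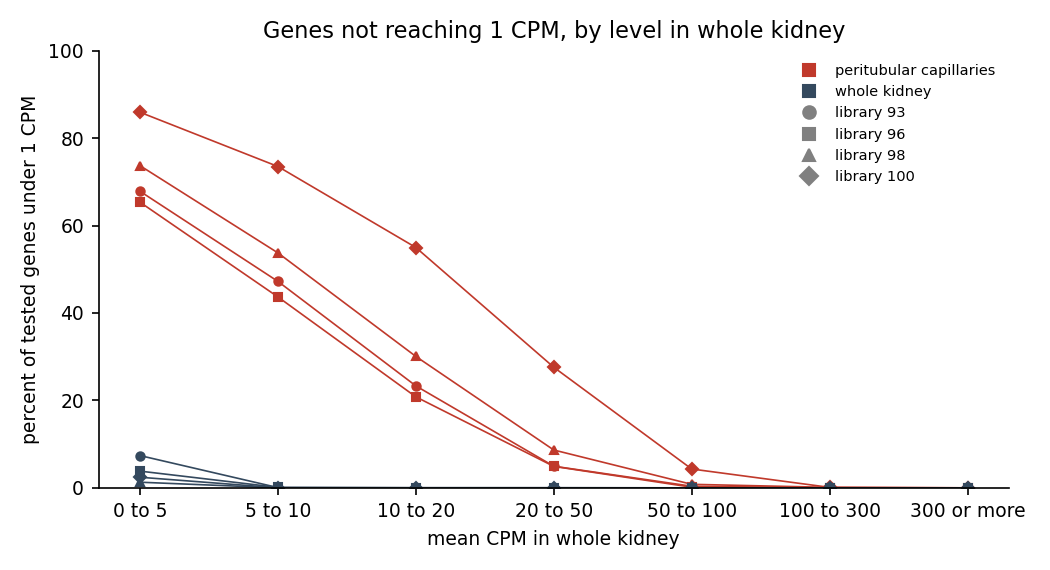
Percent of tested genes under 1 CPM in each library, for bands of mean CPM in whole kidney (red lines, capillary libraries; dark lines, whole kidney; 1 line per library). Capillary library 100 is highest in every band up to 50 to 100 CPM, with 55.0% of genes of 10 to 20 CPM under 1 CPM, and the whole kidney lines lie near 0 above 5 CPM.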

How the data were processed

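RNA of 4 peritubular capillary and 4 whole kidney samples was measured by QuantSeq 3′ mRNA sequencing. The authors deposited raw read counts per gene in 1 table, without normalization or a filter on low values. Per their methods, reads were trimmed with bbduk, aligned with STAR to GRCm38.p6 and counted with htseq-count; the submitters' processing notes list STAR 2.7, SAMtools 1.9 and HTSeq 0.13, and also GRCm39 and featureCounts, without saying for which step. The sources used here name neither a strand setting nor molecular identifiers. Whether reads of genes that overlap on opposite strands, Brip1os among them, were counted apart is therefore not known, and counts may hold PCR duplicates. Of 168 columns, 20 were assigned to groups by the header and 148 were not used. The meaning of the letters that follow the name of capillary library 96 is not given.

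The 8 libraries were fitted with edgeR 4.0.16 (quasi-likelihood F test in its legacy form, TMM, filterByExpr, group as the only term) in R 4.3.3, and genes were called at a Benjamini-Hochberg FDR under 0.05. CPM values are TMM-scaled, and a standard error is the log2 fold change over the root of F. The scripts were tested on simulated data. Shares are percent of all counts in a library. Shares and log2 ratios of summed counts were compared by exact two-sided permutation tests over samples, whose smallest p for 4 against 4 is 0.0286. No label names the animal of a sample, so p-values cover only the spread seen here, which may be technical. Named genes were the 12 highest and 12 lowest called log2 fold changes with at least 10 CPM in all 4 libraries of the higher group and no overlap, at most 4 called members of each list (by p) with at most 2 that ran against the list's median, and identity genes; predicted genes and pseudogenes were passed over. Genes, lists and tests were chosen with earlier results of these data known. Alternatives were other scalings and filters, DESeq2 1.42.0, edgeR's version 4 form, all 20 libraries in one fit, a fold threshold, a replicate block and leaving out each library. Chosen after seeing the data were limma 3.58.1 voom with a variance for each group, a level minimum, and a shorter capillary list.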

Additional observations from a re-analysis of the deposited data

Results flagged for a closer look

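Over 80 groups of 4 values, covering list shares, list ratios and identity genes, 4 held 1 library far from the other 3 by Dixon's criterion, which chance meets in about 1 in 20 groups. Capillary library 100 stood apart in the share of counts on collecting duct principal cell genes, at 0.0619%, and in Emcn, at 597 CPM. Capillary library 96 stood apart in Cdh5, at 7.64 CPM. Whole kidney library 98 stood apart in Igfbp5, at 253 CPM.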

How the results depend on the processing

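Numbers of called genes depended on the processing. Against 362 higher and 1072 lower genes, 137 were higher with library totals, 574 higher and 2707 lower without a filter, 116 and 48 at 10 CPM or more, 671 and 2624 by DESeq2, 573 higher by edgeR's version 4 form, 12 and 2 with all 20 libraries in one fit, and 100 higher by limma voom with a variance for each group. Among genes of 50 CPM or more, 16 were lower. Leaving out 1 library gave 143 to 802 higher and 805 to 2277 lower. The cause of these shifts was not tested. Library numbers were shared between groups. Deviations of same-numbered libraries correlated at 0.0219, 1e-04, 0.0227 and 0.0173 for 93, 96, 98 and 100. For capillary libraries 93, 98 and 100 that value was the highest with any whole kidney library. The median SD of log2 CPM was 1.585 between capillary libraries and 0.2311 between whole kidney libraries, so these correlations cannot decide whether the numbers mark a pairing. The main tests did not use one. With the number as a replicate block, 224 were higher and 634 lower, and the differences in the capillary endothelial (-0.49), S1 and S2 to S3 (0.86) and proximal to later nephron (0.64) ratios had an exact sign-flip p of 0.125, the smallest that 4 pairs allow. The pan-endothelial ratio differed by -0.98 as a mean of log2(CPM + 1) (exact p 0.0286) and by -0.71 to -0.38 without 1 library, and the proximal to later nephron ratio by 0.48 to 0.77 without 1 library. As means of log2(CPM + 1) the other 3 ratios differed by -1.07 (capillary endothelial), 1.51 (S1 and S2 to S3) and 1.33 (proximal to later nephron; exact p 0.0286 each). Such means give every gene the same weight, genes under 1 CPM in capillary libraries included. The capillary endothelial ratio of summed counts differed by -1.13 without Igfbp7 and Ly6a (exact p 0.0286). Differences in share, in percentage points and without 1 library, ran from 0.00339 to 0.018 for pan-endothelial genes (past the threshold without capillary library 98) and from 0.0511 to 0.298 for distal genes (without capillary library 96). Uncalled differences changed sign, with ranges of -0.00182 to 0.000712 for glomerular endothelial, -0.00429 to 0.00875 for venous, -0.0173 to 0.00791 for S3, -0.00325 to 0.0453 for fatty acid oxidation (-0.00238 with the total taken without mitochondrially encoded genes) and -0.028 to 0.0194 for gluconeogenesis genes. Of the 92 called genes that the text or its rule names, 53 kept the call without each library and 12 in every alternative that tested them, and none reversed. Genes under about 20 CPM in whole kidney were often under 1 CPM in capillary libraries, where a difference of the size seen in proximal genes was not detectable.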
